A study of Mus musculus with 24 samples.

Results

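The 10 genes described here are Nfe2l2, which encodes the transcription factor NRF2, and 9 genes known as its targets in antioxidant defence: Hmox1, Srxn1, Osgin1, Gclc, Gclm, Txnrd1, Nqo1, Gsta1 and Gsta4. They were taken by symbol from the 24421 genes of the deposited count files, and all 10 were found and passed the filter on low counts. RNA was measured in 24 heart libraries from male mice of 14 weeks on a chow diet, on a mixed background that is mostly C57BL/6N with some 129. The mice carried 6 genotypes at Acadl and Acadvl, which encode the long-chain and very long-chain acyl-CoA dehydrogenases of mitochondrial fatty acid oxidation. Wild type was Acadl wt / Acadvl wt, with 4 libraries. A further 4 libraries came from Acadl Het / Acadvl wt mice (here Acadl Het hearts) and 3 from Acadl Het / Acadvl Het mice (double Het hearts). The Acadvl KO hearts, also 4, were Acadl Het / Acadvl KO, so that they and the Acadl Het controls both carried the Acadl Het genotype. The remaining libraries bore an Acadl KO label, 4 of them as Acadl KO / Acadvl wt (here the labelled Acadl KO) and 5 as Acadl KO / Acadvl Het. The sources used here do not give how the alleles were made. No label ties the libraries of a genotype to separate mice, so a p-value speaks only for the spread between libraries, which may be technical.

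NRF2 is held low in resting cells by KEAP1, which hands it to the CUL3 ubiquitin ligase for degradation. When electrophiles or oxidants modify KEAP1, NRF2 accumulates, pairs with a small MAF protein and binds antioxidant response elements, while BACH1 competes for such sites. Its targets make glutathione, reduce thioredoxin and quinones, conjugate lipid aldehydes and break down heme, and in the heart the pathway is studied for its part in the response to oxidative stress.

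Promoter sequences are shown for 5 of the genes. Srxn1, Osgin1 and Txnrd1 were called higher under both KO labels, and Gclm and Nqo1 under the Acadl KO label and not with Acadvl KO. Gclm missed the latter call narrowly (log2 difference 0.65, edgeR adjusted p = 0.05918) and was called there by DESeq2. It was also not shown to differ between the KO labels, so Gclm is not set apart from the former genes. RefSeq promoter windows on GRCm38.p6 were matched by symbol for 7 of the 10 genes, in 9 windows, and Hmox1, Gclc and Gsta4 are named only. Each line gives the 250 bases before the start site on the gene's strand, 5′ to 3′. Capitals mark matches, on either strand, to TGACNNNGC, the core of the antioxidant response element, or to TGACTCA, the AP-1 motif, whose letters can also open such an element.
Srxn1 (chr2:152105274-152105523, plus strand): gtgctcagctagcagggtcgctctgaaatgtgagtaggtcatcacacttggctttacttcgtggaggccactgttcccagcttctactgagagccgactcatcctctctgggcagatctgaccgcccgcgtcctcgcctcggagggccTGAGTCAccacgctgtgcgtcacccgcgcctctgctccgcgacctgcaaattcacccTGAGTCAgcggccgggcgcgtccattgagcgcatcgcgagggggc
Osgin1 (chr8:119436897-119437146, plus strand): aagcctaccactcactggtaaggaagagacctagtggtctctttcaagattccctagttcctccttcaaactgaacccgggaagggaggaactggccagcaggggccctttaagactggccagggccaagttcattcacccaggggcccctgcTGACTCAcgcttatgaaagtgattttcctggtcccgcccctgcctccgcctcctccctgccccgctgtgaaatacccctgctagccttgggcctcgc
Txnrd1, one of 3 windows (chr10:82858956-82859205, plus strand): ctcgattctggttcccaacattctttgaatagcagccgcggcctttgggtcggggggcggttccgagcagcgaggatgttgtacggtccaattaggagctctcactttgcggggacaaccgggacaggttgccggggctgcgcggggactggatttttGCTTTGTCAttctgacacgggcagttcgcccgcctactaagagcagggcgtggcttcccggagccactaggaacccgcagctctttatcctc
Gclm (chr3:122245307-122245556, plus strand): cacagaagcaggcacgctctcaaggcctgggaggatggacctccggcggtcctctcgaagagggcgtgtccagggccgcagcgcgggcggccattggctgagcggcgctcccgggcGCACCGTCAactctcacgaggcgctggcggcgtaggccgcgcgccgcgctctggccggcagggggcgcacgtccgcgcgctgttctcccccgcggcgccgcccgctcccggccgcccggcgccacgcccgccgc
Nqo1 (chr8:107403206-107403455, minus strand): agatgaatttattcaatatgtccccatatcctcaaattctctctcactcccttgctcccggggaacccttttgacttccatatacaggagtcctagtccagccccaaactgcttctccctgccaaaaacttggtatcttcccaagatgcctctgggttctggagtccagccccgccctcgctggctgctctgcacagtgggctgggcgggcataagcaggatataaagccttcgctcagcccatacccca

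In these windows, which run from 250 bases before to 50 after the start site (position 1), TGACNNNGC was found at -134 for Gclm and at -92 for Txnrd1, on the minus strand in both. A position is that of the leftmost base of the match as printed, and -1 is the base before the start site. The Txnrd1 match, with an A after its last letter, also matched the longer form of the element and starts at -93 in that form. Srxn1 held TGACTCA at -102 and -45 on the minus strand and TGACNNNGC at 29, past the bases shown. Osgin1 held TGACTCA at -97, and Nfe2l2, whose sequence is not shown, held TGACNNNGC at -240. None of these 3 motifs was found in the windows of Nqo1 and Gsta1 or in the other 2 windows of Txnrd1. Of all 32851 promoter windows of this length, 12.4% held TGACNNNGC, 3.04% that form with a closing A, and 5.2% TGACTCA.

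The libraries held 34320838 to 51743114 counts each, and the labels give 2 batches of RNA isolation, of 9 and 15 libraries, with all 6 genotypes in each. The counts also came from 2 processing runs that match these batches library by library, so run and batch cannot be told apart. Acadvl followed its labels, at 1632 ± 82.5 CPM (read counts scaled to a common library size with TMM factors; SD, n = 4) in Acadl Het hearts and 599.2 ± 121 CPM in Acadvl KO hearts (n = 4). It was also 1.34-fold higher in the labelled Acadl KO than in wild type (2115 against 1577 CPM, edgeR adjusted p = 0.007564), although both carry Acadvl wt. Acadl was higher and not lower under the Acadl KO label, at 1358 ± 42 CPM in wild-type hearts and 1894 ± 167 CPM in the labelled Acadl KO (n = 4 each), a log2 difference of 0.47 (SE 0.07, edgeR adjusted p = 1.818e-05). It still separated the label: every library labelled Acadl KO held at least 1697 CPM and every other library at most 1625 CPM. Means were 1549 CPM in Acadl Het, 1520 CPM in double Het and 1454 CPM in Acadvl KO hearts. The cause of this was not tested. Every direction below for these libraries therefore rests on the label. In 1 library, double Het replicate 1, Rn45s took 17.3% of the counts, against at most 0.558% elsewhere. Albumin (Alb), a hepatocyte marker, exceeded 10 CPM in 6 libraries: all 3 double Het, Acadvl KO replicate 2, and replicates 2 and 3 of the labelled Acadl KO. Myh6, the main myosin heavy chain of the adult mouse heart, stood between 34413 and 51957 CPM over all libraries, and the heart label was thus met.

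In the labelled Acadl KO most of the set was raised: 9 of the 10 genes were higher than in wild type, by 1.71-fold for Gsta4 to 6.05-fold for Hmox1, and Nfe2l2 itself did not pass the test. The genes of heme oxygenase, sulfiredoxin, the growth inhibitor Osgin1, both subunits of glutamate-cysteine ligase in glutathione synthesis, thioredoxin reductase and the detoxifying enzymes were all among the 9. Of all 15804 genes tested, 19.6% were called higher in this comparison and 17.6% lower (edgeR quasi-likelihood test, Benjamini-Hochberg adjusted p under 0.05). For the same 9 genes every library of the labelled Acadl KO stood above every wild-type library, which held for 18.1% of all genes. The median log2 difference of the 10 genes was 1.24, against -0.02 over all genes tested. Under upper-quartile scaling the latter moved to -0.11 and 36.5% of all calls were higher in place of 52.7%, while the same 9 of the 10 genes were called higher. The 10 genes were chosen with earlier results of these data known, so their counts and medians describe the set and do not test it. In bulk hearts a gene's level can differ through more RNA per cell or through more cells of a type, and these cannot be told apart.

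**Figure D1:**
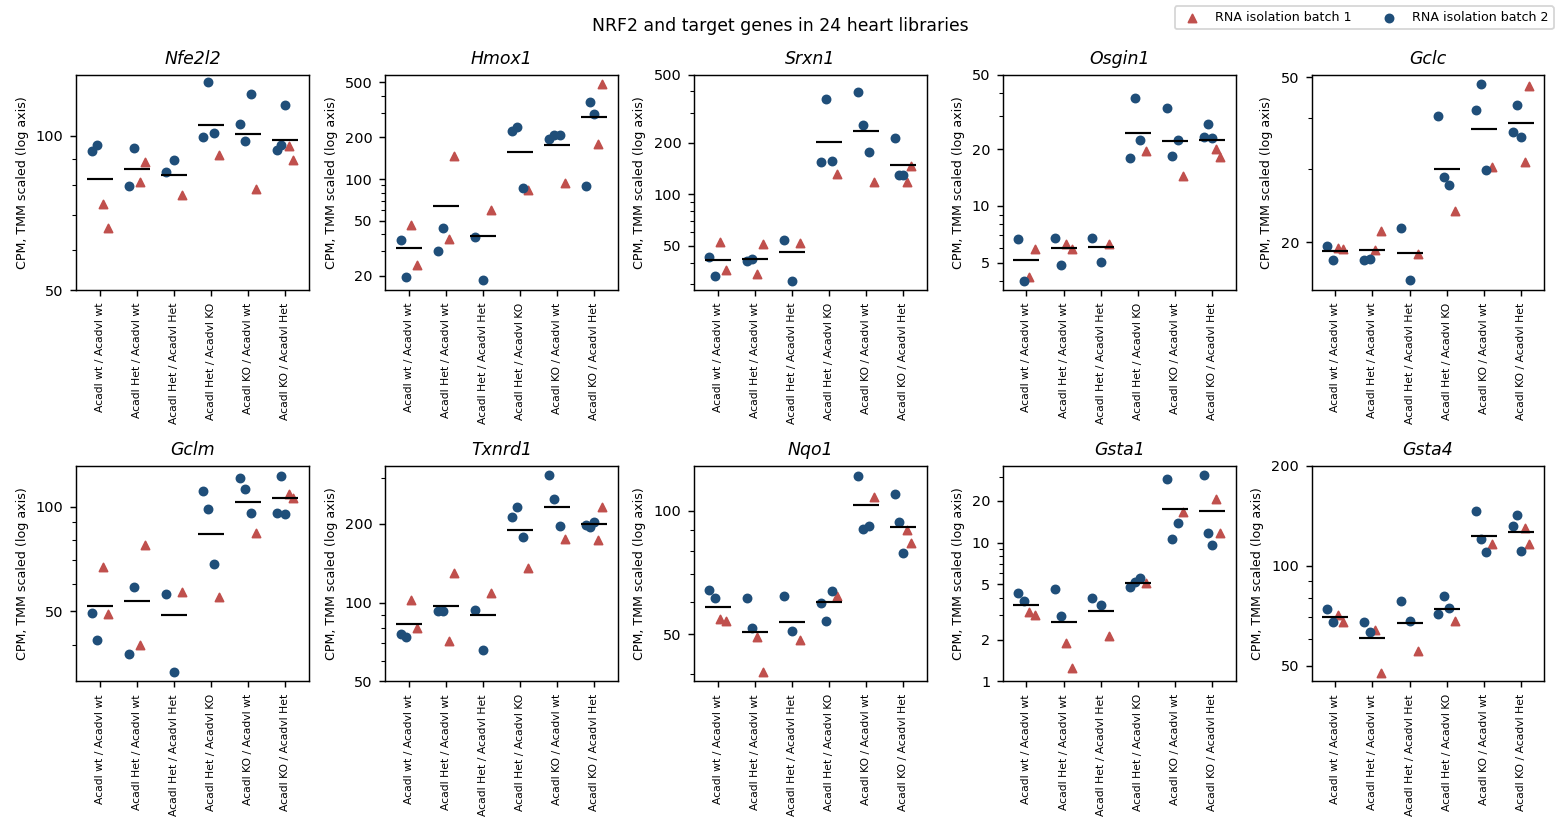
CPM with TMM factors (log axis) of the 10 genes in each of 24 heart libraries, by genotype as labelled on the x axis. Triangles are RNA isolation batch 1, circles are batch 2 and bars are group means. Nqo1, Gsta1 and Gsta4 were high only in the libraries labelled Acadl KO in this plot (for Gsta1, 9.56 CPM or more against at most 5.52 CPM), whereas Srxn1 and Osgin1 were also high in Acadvl KO hearts.

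Nfe2l2 (chromosome 2, 75675519 to 75704641, minus strand, mm10) stood between 66.2 and 95.8 CPM in wild type, 79.7 and 94.8 CPM in Acadl Het hearts and 76.6 and 89.6 CPM in double Het hearts. It stood between 91.8 and 127 CPM in Acadvl KO hearts, 78.8 and 121 CPM in the labelled Acadl KO, and 89.6 and 115 CPM in those labelled Acadl KO / Acadvl Het. These groups overlapped each other, except that the Acadvl KO hearts and the libraries labelled Acadl KO / Acadvl Het lay above all double Het hearts, the latter only just. Its log2 difference was 0.24 for labelled Acadl KO against wild-type hearts (SE 0.10, edgeR adjusted p = 0.07433) and 0.22 (SE 0.10, edgeR adjusted p = 0.1273) for Acadvl KO against Acadl Het. The first difference passed the test without labelled Acadl KO replicate 4 (edgeR adjusted p = 0.03813), and the second without Acadl Het replicate 4 (edgeR adjusted p = 0.04912).

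Hmox1 (chromosome 8, 75093618 to 75100593, plus strand), which encodes the stress-inducible heme oxygenase, was at 36.4, 19.6, 46.7 and 24.1 CPM in wild type. It was at 193, 209, 207 and 93.1 CPM in the labelled Acadl KO. Every one of the latter was above wild type, with replicate 4 at less than the other 3, and the log2 difference was 2.60 (SE 0.59, edgeR adjusted p = 0.00209). Acadl Het hearts held 30.1, 44.5, 36.6 and 146 CPM, so that replicate 4 reached into the range of the labelled Acadl KO. Acadvl KO hearts fell into a pair of high libraries, at 223 and 239 CPM, and a pair of lower ones, at 86.3 and 84.0 CPM. Hmox1 in Acadvl KO hearts was at a log2 difference of 1.47 from Acadl Het (SE 0.59, edgeR adjusted p = 0.07431), which became 2.11 (edgeR adjusted p = 0.009289) without Acadl Het replicate 4.

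Srxn1 (chromosome 2, 152105524 to 152111376, plus strand) encodes sulfiredoxin, which restores overoxidised peroxiredoxins. It was at 43.3, 33.4, 52.8 and 36.1 CPM in wild-type hearts and at 393, 252, 177 and 118 CPM in the labelled Acadl KO. In Acadl Het hearts it was at 40.9, 42.2, 34.1 and 51.6 CPM, and in Acadvl KO hearts at 155, 362, 156 and 132 CPM. Neither KO group overlapped its control, and both spread widely, with 1 library of each far above its lowest. The log2 difference was 2.41 for labelled Acadl KO against wild-type hearts (SE 0.35, edgeR adjusted p = 3.67e-05). For Acadvl KO against Acadl Het it was 2.17 (SE 0.35, edgeR adjusted p = 0.000155).

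Osgin1 (chromosome 8, 119437162 to 119446256, plus strand), an oxidative stress-induced growth inhibitor, was the scarcest of the 10 genes per kilobase in wild type. It was at 6.67, 3.99, 4.20 and 5.88 CPM in wild-type hearts and at 33.3, 18.5, 22.6 and 14.5 CPM in the labelled Acadl KO. Acadl Het hearts held 6.72, 4.85, 6.28 and 5.93 CPM and Acadvl KO hearts 18.0, 37.7, 22.6 and 19.5 CPM. As for Srxn1, neither KO group overlapped its control. The log2 difference was 2.02 for labelled Acadl KO against wild-type hearts (SE 0.24, edgeR adjusted p = 4.469e-06) and 1.96 for Acadvl KO against Acadl Het (SE 0.24, edgeR adjusted p = 1.052e-05).

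Of the genes of glutathione synthesis, RNA is given here for the catalytic (Gclc, chromosome 9, 77754535 to 77794489) and the modifier subunit (Gclm, chromosome 3, 122245557 to 122267215) of glutamate-cysteine ligase, both on the plus strand. Gclc was held tightly in wild type, between 18.2 and 19.6 CPM, and stood between 29.9 and 48.1 CPM in the labelled Acadl KO, a log2 difference of 0.95 (SE 0.16, edgeR adjusted p = 0.0001509). Gclm stood between 41.2 and 66.8 CPM in wild-type hearts and between 83.9 and 121 CPM in the labelled libraries, a log2 difference of 1.01 (SE 0.25, edgeR adjusted p = 0.003291). For both subunits the ranges did not overlap. Acadvl KO hearts held 23.8 to 40.3 CPM of Gclc against 18.2 to 21.3 CPM in Acadl Het, a log2 difference of 0.62 (SE 0.16, edgeR adjusted p = 0.008641). Gclm overlapped in that comparison, at 55.0 to 111 CPM against 37.5 to 77.5 CPM, with a log2 difference of 0.65 (SE 0.25, edgeR adjusted p = 0.05918).

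Txnrd1 (chromosome 10, 82833951 to 82897724, plus strand) encodes the cytosolic thioredoxin reductase. It was at 75.7, 74.0, 102 and 79.9 CPM in wild-type hearts and at 308, 248, 196 and 174 CPM in the labelled Acadl KO, a log2 difference of 1.48 (SE 0.21, edgeR adjusted p = 2.801e-05). It was at 92.6, 92.7, 71.6 and 130.1 CPM in Acadl Het hearts and at 213, 231, 179 and 136 CPM in Acadvl KO hearts, a log2 difference of 0.97 (SE 0.21, edgeR adjusted p = 0.002096). Neither pair of groups overlapped, although the lowest Acadvl KO library lay close to the highest control.

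Nqo1 (chromosome 8, 107388225 to 107403205, minus strand) encodes a quinone reductase and is often used as a readout of NRF2. It was at 63.9, 61.2, 54.3 and 53.7 CPM in wild-type hearts and at 122, 90.2, 92.0 and 108 CPM in the labelled Acadl KO, a log2 difference of 0.80 (SE 0.12, edgeR adjusted p = 2.956e-05). In Acadvl KO hearts it was at 59.6, 53.8, 63.6 and 62.0 CPM, all within the wild-type range. Against Acadl Het hearts, at 61.1, 51.7, 49.3 and 40.5 CPM, these overlapped and the log2 difference was 0.22 (SE 0.12, edgeR adjusted p = 0.187).

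Gsta1 (chromosome 9, 78230669 to 78242683) and Gsta4 (chromosome 9, 78191966 to 78209349), both on the plus strand, encode alpha-class glutathione S-transferases, and the latter is known for conjugating the lipid aldehyde 4-hydroxynonenal. Gsta1 was at 4.31, 3.77, 3.17 and 3.03 CPM in wild-type hearts and at 29.0, 10.6, 13.8 and 16.7 CPM in the labelled Acadl KO, a log2 difference of 2.22 (SE 0.36, edgeR adjusted p = 0.0001142). Gsta4 was at 74.1, 67.6, 71.1 and 67.8 CPM in wild-type hearts and at 146, 120.5, 110.1 and 116 CPM in the labelled libraries, a log2 difference of 0.77 (SE 0.10, edgeR adjusted p = 1.273e-05). Both genes were clear of wild type in every labelled library. In Acadvl KO hearts Gsta1 was at 4.77, 5.21, 5.52 and 5.09 CPM, just above the 4.61, 2.98, 1.88 and 1.26 CPM of Acadl Het hearts (log2 difference 0.93, SE 0.39, edgeR adjusted p = 0.09083). Gsta4 was at 71.6, 80.8, 74.6 and 68.4 CPM in the former and at 67.9, 63.1, 64.1 and 47.4 CPM in the latter (log2 difference 0.25, SE 0.10, edgeR adjusted p = 0.08382). The groups lay side by side without overlap for both genes, and neither passed the test. Gsta1 has close copies such as Gsta2, so its counts are uncertain.

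The scale of these levels differed between genes. Per kilobase of exon in wild type, Gsta4 was the most abundant of the 10, at 73.2 ± 3.19 CPM per kb (SD, n = 4), followed by Nqo1 at 37.6 ± 3.25, Nfe2l2 at 33.3 ± 5.89 and Gclm at 24.9 ± 5.21 CPM per kb. Txnrd1 at 20.6 ± 3.25 and Hmox1 at 20.1 ± 7.78 CPM per kb came next. Srxn1 at 14.7 ± 3.08, Gclc at 5.57 ± 0.182, Gsta1 at 4.15 ± 0.688 and Osgin1 at 2.64 ± 0.664 CPM per kb closed the order. Each neighbour in the order from Nqo1 to Srxn1 lay within the spread of the next, as means ± SD, whereas Gsta4 lay clear of Nqo1, Srxn1 of Gclc, Gclc of Gsta1 and Gsta1 of Osgin1. In the labelled Acadl KO, Hmox1 at 112 ± 35.3 and Srxn1 at 83.7 ± 42.2 CPM per kb came next after Gsta4 at 129 ± 16.6 CPM per kb, with spreads that overlapped.

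Acadl Het hearts served as a further control for the labelled Acadl KO, and the comparison shares the labelled libraries with the one above. Against them 9 of the 10 genes were again called higher, where 18.1% of all genes were, and 8 did not overlap, where 16.7% of all genes did not. Gsta1 had a log2 difference of 2.70 (SE 0.38, edgeR adjusted p = 2.758e-05), Srxn1 of 2.39, Osgin1 of 1.81, Txnrd1 of 1.26, Nqo1 of 1.00, Gsta4 of 0.99, Gclm of 0.96 and Gclc of 0.94. For Hmox1 it was 1.62 (SE 0.59, edgeR adjusted p = 0.03841), and its call was lost in 7 of the 24 fits that left out 1 library, with an edgeR adjusted p of up to 0.1253. These libraries were replicates 1, 2 and 3 of the labelled Acadl KO, 1, 2 and 3 of Acadl Het, and 3 of double Het. The call was also lost without the filter on low counts (edgeR adjusted p = 0.06631), with only the genotypes compared (edgeR adjusted p = 0.1109) and without the libraries above 10 CPM of Alb, where the log2 difference was 1.24 (edgeR adjusted p = 0.2018). In this comparison 1 of 6 atrial markers (Kcnj3 at -1.63) and 1 of 8 ventricular markers (Actc1 at -0.53) were lower. So were 1 of 6 fibroblast (Tcf21 at -0.47) and 1 of 10 macrophage markers (Itgam at -1.15). Of all 15804 genes tested 2641 were called lower, and the part of these markers was not tested.

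The libraries labelled Acadl KO / Acadvl Het were also set against double Het hearts, groups that enter neither of the comparisons above, although all libraries shared 1 fit and so its estimates of spread and batch. Again 9 genes were called higher, where 20.1% of all genes were and 20.5% were lower, and all 10 were free of overlap, where 18.4% of all genes were. Hmox1 was at 89.2, 359, 297, 181 and 484 CPM in the 5 labelled libraries and at 37.9, 18.6 and 59.6 CPM in the 3 controls, a log2 difference of 2.88 (SE 0.64, edgeR adjusted p = 0.001775). Srxn1 was at 212, 130.03, 129.8, 118 and 147 CPM against 54.5, 31.4 and 51.9 CPM, a log2 difference of 1.68 (SE 0.36, edgeR adjusted p = 0.001287). Every labelled library stood above every control for both genes, with Hmox1 spreading further than Srxn1. Gsta1 was at 30.5, 11.7, 9.56, 20.5 and 11.7 CPM against 3.996, 3.54 and 2.12 CPM, a log2 difference of 2.43 (SE 0.40, edgeR adjusted p = 0.0001586). The log2 difference was 1.89 for Osgin1, 1.16 for Txnrd1, 1.12 for Gclm, 1.05 for Gclc, 0.92 for Gsta4 and 0.78 for Nqo1. For Nfe2l2 it was 0.24 (SE 0.10, edgeR adjusted p = 0.06868), and it passed the test in 6 of the 24 fits that left out 1 library: replicates 2 and 3 of the labelled Acadl KO, 1 and 4 of Acadl Het, or 1 and 2 of Acadl KO / Acadvl Het. Hepatocyte markers moved with these groups: 9 of 10 were lower in the labelled libraries, and their summed level was 18.9 to 43.1 CPM there against 60.7 to 328 CPM in double Het. Of the atrial markers 2 of 6 were lower, Sln at -2.30 and Kcnj3 at -1.79, of the fibroblast markers 1 of 6, Tcf21 at -0.86, and of the endothelial markers 1 of 6, Tek at -0.40. Of the macrophage markers 2 of 10 were higher, Cd68 at 0.62 and Cd163 at 0.68, and of the ventricular markers 1 of 8, Mybpc3 at 0.33. The part of these markers in the result was not tested.

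**Figure D2:**
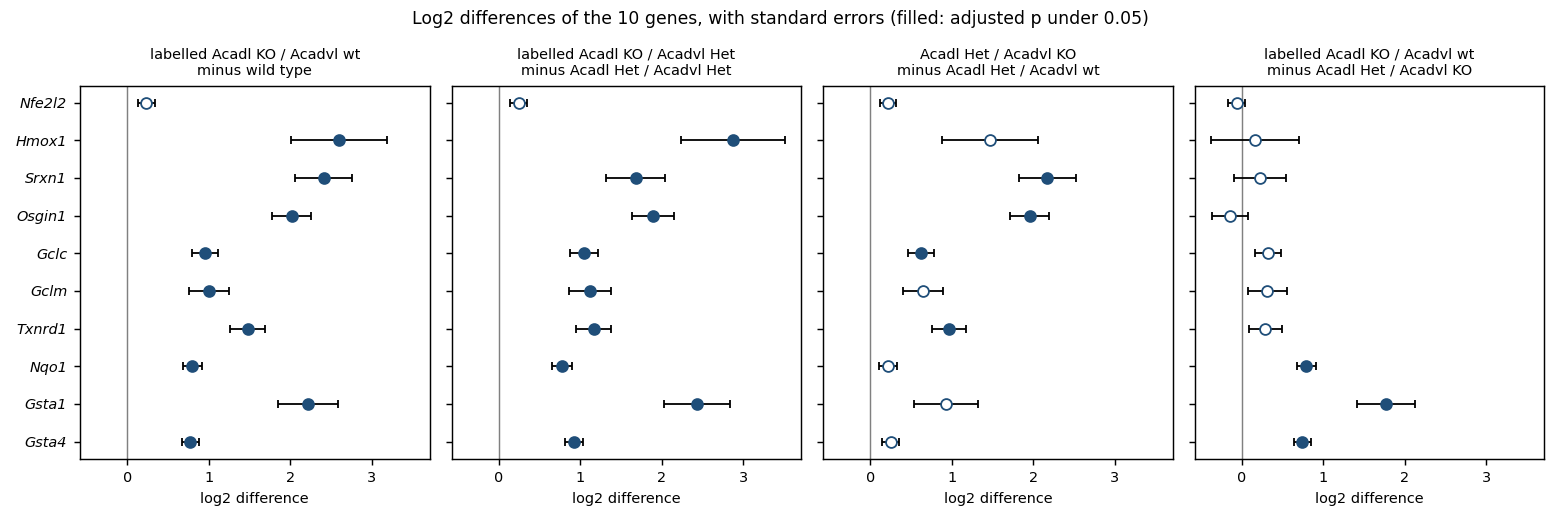
Log2 differences of the 10 genes in 4 comparisons, with bars of 1 standard error from the edgeR fit and filled points for an adjusted p under 0.05. The first 2 panels each have 9 filled points, the Acadvl KO panel has 4, and the direct comparison of the KO labels has 3 (Nqo1, Gsta1 and Gsta4).

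With Acadvl KO, 4 of the 10 genes were called higher than in Acadl Het hearts. Srxn1 rose 4.51-fold, Osgin1 3.88-fold, Txnrd1 1.96-fold and Gclc 1.54-fold, and none of the 10 fell. Of all genes 12.9% were called higher in this comparison and 11.5% lower. The libraries of 6 of the 10 genes did not overlap, these 4 with Gsta1 and Gsta4, against 11.7% of all genes, and the median log2 difference of the 10 was 0.79 against 0.02 over all genes. Hmox1, Gclm and Nfe2l2 also passed, making 7, without Acadl Het replicate 4, the library in which Hmox1, Gclm and Txnrd1 were the highest of that group. DESeq2 on all libraries also called 7, the 4 with Hmox1, Gclm and Gsta1. Gsta1 also passed without Acadl Het replicate 1 (edgeR adjusted p = 0.03946), Gsta4 without Acadl Het replicate 3 (edgeR adjusted p = 0.04837), and Hmox1 without replicate 4 of Acadvl KO or of the labelled Acadl KO (edgeR adjusted p = 0.034 and 0.04603). Gclm passed without any of 4 further libraries, Acadvl KO replicates 3 and 4, labelled Acadl KO replicate 4 and double Het replicate 2.

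Some macrophage markers differed with the Acadvl KO label. Of 10 markers 2 were higher in Acadvl KO than in Acadl Het hearts, where 12.9% of all genes were. They were Cd68 with a log2 difference of 1.00 (SE 0.22, edgeR adjusted p = 0.002111) and Lyz2 with 0.56 (edgeR adjusted p = 0.04893). Adgre1 was not called, at 7.59 to 19.1 CPM in Acadvl KO and 7.43 to 10.1 CPM in Acadl Het hearts. The summed level of the 10 overlapped, at 314 to 551 CPM in the former and 290.3 to 337 CPM in the latter. It was 262 to 299 CPM in wild-type hearts and 247 to 317 CPM in the labelled Acadl KO, where none of the 10 was called (edgeR; 1 at an unadjusted p under 0.05). Of 10 hepatocyte markers 1, Apoa1, was called higher there, where 19.6% of all genes were. Their summed level was 17.9 to 145 CPM against 14.1 to 25.0 CPM in wild type. Of the cardiomyocyte markers Kcnj3, an atrial marker, was lower in the labelled Acadl KO (log2 difference -1.50) and in Acadvl KO hearts (-1.75). This was 1 of 6 atrial markers in each comparison, where 17.6% of all genes were lower in the former and 11.5% in the latter. Of 8 ventricular markers 1 was lower in the labelled Acadl KO, Actc1 at -0.54, while in Acadvl KO hearts Myl2 and Tnni3 were lower, at -0.33 and -0.26, and Mybpc3 higher, at 0.29. The part of these markers in the results was not tested. Without the libraries above 10 CPM of Alb, 9 of the 10 genes were called for labelled Acadl KO against wild-type hearts, 8 against Acadl Het and 4 for Acadvl KO.

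The labelled Acadl KO were then compared directly with Acadvl KO hearts, which differ at both genes. Of the 10 genes 3 were higher under the Acadl KO label, where 1.77% of all genes were, with 2.66% lower: Gsta1 with a log2 difference of 1.77 (SE 0.35, edgeR adjusted p = 0.009995), Nqo1 with 0.79 (SE 0.12, edgeR adjusted p = 0.0008751) and Gsta4 with 0.74 (SE 0.10, edgeR adjusted p = 0.0004613). For the same 3 genes the groups did not overlap, as for 4.26% of all genes. The other 7 were not shown to differ: their log2 differences ran from -0.15 for Osgin1 (SE 0.22) to 0.32 for Gclc (SE 0.16), with 0.15 for Hmox1 (SE 0.54) and 0.22 for Srxn1 (SE 0.32). The call of Gsta1 was lost in a fit of these 2 genotypes alone (edgeR adjusted p = 0.06658). In this comparison 3 of 10 macrophage markers were lower under the Acadl KO label (C1qa at -0.64, C1qb at -0.61 and Itgam at -1.32). Of these 10 markers 9 had an unadjusted p under 0.05 (edgeR), with a median log2 difference of -0.67 against 0.005 over all genes tested. Of 6 fibroblast markers 1 was called lower and 4 had an unadjusted p under 0.05, with a median of -0.50. The part of these markers was not tested.

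Heterozygosity alone was not accompanied by a called change in any of the 10 genes. None was called for Acadl Het against wild type by edgeR, DESeq2 or limma voom, and 1, Gsta4, had an unadjusted p under 0.05, with a log2 difference of -0.22 (SE 0.10). Of all genes 0% were called in that comparison by edgeR, with 541 at an unadjusted p under 0.05, while 1.88% of all genes and 0 of the 10 lay wholly above wild type. Acadvl Het against Acadvl wt gave 0 called genes of the 10 by the same 3 tools, and 0 at an unadjusted p under 0.05, both among the libraries labelled Acadl KO and in Acadl Het hearts, where 0% and 0.00633% of all genes were called. None of the 10 lay wholly above in either, as 1.01% and 2.49% of all genes did. The median log2 difference of the 10 was 0.04, 0.02 and -0.03 in these 3 comparisons. The difference made by the Acadl KO label also did not depend detectably on Acadvl Het: 0 of the 10 passed the interaction test (0% of all genes, and 0 of the 10 at an unadjusted p under 0.05), with the widest estimate for Hmox1 at 1.26 (SE 0.81).

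The differences were next computed within each RNA isolation batch. In batch 2, with 3 libraries of the labelled Acadl KO and 2 of wild type, all 10 log2 differences were above 0 and 9 were called. In batch 1, with 1 labelled library and 2 of wild type, all 10 were again above 0, at 0.18 to 2.43, and 3 were called, Osgin1, Nqo1 and Gsta1. For Acadvl KO, batch 2 gave 10 of 10 above 0 and 6 called, and batch 1, with 1 Acadvl KO library and 2 controls, gave 8 of 10 above 0 and only Osgin1 called. In batch 1 Hmox1 was at -0.11 and Gclm at -0.08 in the latter comparison. Against Acadl Het, the labelled Acadl KO had 9 of 10 above 0 and 4 called in batch 1, where Hmox1 was at 0.04, and 10 above 0 and 9 called in batch 2, where Hmox1 was at 2.45. Acadl KO / Acadvl Het against double Het had all 10 above 0 in both batches, with 4 and 9 called. In the direct comparison of the KO labels 0 were called in batch 1 and 2 in batch 2, with Nqo1 at 0.80 and 0.79, Gsta1 at 1.70 and 1.79 and Gsta4 at 0.76 and 0.74. A lone library was assumed in these fits to vary like the other groups. The share of all genes called within each batch was not computed, so these counts have no background beside them.

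The genes also differed in how they varied from library to library. Over the 24 libraries, with batch adjusted, Nqo1, Gsta1 and Gsta4 followed each other, with Pearson's r of 0.97 for Nqo1 with Gsta1 and 0.95 for each with Gsta4. Srxn1 followed Txnrd1 (r = 0.96) and Osgin1 (r = 0.94), and Hmox1 followed Gclm and Txnrd1 (r = 0.92 with both). Nfe2l2 was least like Nqo1 (r = 0.24) and most like Hmox1 (r = 0.71). These coefficients are descriptions over libraries that share genotypes, so differences between groups enter them. With genotype also removed, r was 0.85 for Nqo1 and Gsta1, 0.65 for Nqo1 and Gsta4, 0.61 for Gsta1 and Gsta4, 0.80 for Srxn1 and Txnrd1, 0.65 for Srxn1 and Osgin1, 0.80 for Hmox1 and Gclm and 0.74 for Hmox1 and Txnrd1, whereas Hmox1 was at -0.60 with Nqo1 and at -0.62 with Gsta1. Nfe2l2 was then at 0.43 with Hmox1, 0.24 with Osgin1, 0.22 with Srxn1, 0.19 with Gclm and 0.13 with Txnrd1. It was below 0 with Nqo1 (-0.56), Gsta4 (-0.36), Gsta1 (-0.33) and Gclc (-0.23).

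**Figure D3:**
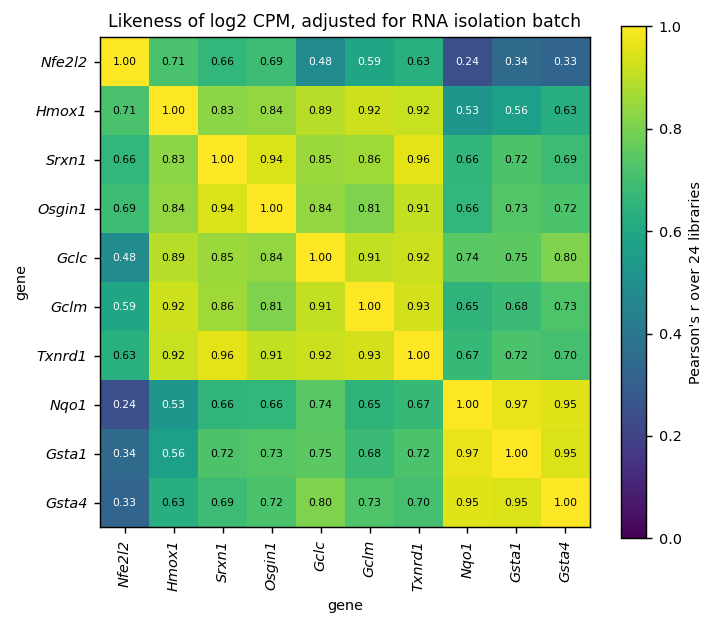
Pearson's r between the 10 genes over 24 libraries, on log2 CPM (with 0.5 CPM added) adjusted for RNA isolation batch, by colour and printed value. Nqo1, Gsta1 and Gsta4 form a block of 0.95 to 0.97, and Nfe2l2 has its lowest values with them (0.24 to 0.34).

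Genes outside the 10 were searched for likeness with predicted genes left out. Those most like Nfe2l2 over the 24 libraries were Zbtb11 (r = 0.90), Atf3, a stress-induced transcription factor (r = 0.84), and Ell2, an elongation factor (r = 0.83). For Hmox1 they were Mtmr1 and Popdc3 (r = 0.96 for both) and Ppp2r2d (r = 0.95). For Srxn1 they were the creatine transporter gene Slc6a8, Por, the reductase that supplies cytochromes P450, and Dhx37 (r = 0.97 for each). Nqo1 had Cdh4 (r = 0.90), Arpp19 and Acsf2 (r = 0.88 for both).

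Genes that control NRF2 were examined as a list of 13. Their median log2 difference was 0.25 in the labelled Acadl KO against wild type. There 7 of the 13 were higher and 0 lower, where 19.6% of all genes were higher and 17.6% lower. The small MAF partners were among the 7: Mafg at 0.93 (SE 0.15, edgeR adjusted p = 5.744e-05), Mafk at 0.87 (SE 0.19) and Maff at 1.39 (SE 0.37, edgeR adjusted p = 0.005945). Sqstm1, the autophagy adaptor p62 that sequesters KEAP1, was at 0.80 (SE 0.14, edgeR adjusted p = 0.0001545) and the competitor Bach1 at 0.59 (SE 0.09, edgeR adjusted p = 6.008e-05). Keap1, named after its value was seen, was at 86.3 against 80.9 CPM, with a log2 difference of 0.09 (SE 0.07, edgeR adjusted p = 0.3102) that was -0.01 under upper-quartile scaling. In Acadvl KO hearts 5 of the 13 were higher and 1 lower than in Acadl Het hearts, against 12.9% and 11.5% of all genes. Among them were Sqstm1 at 0.85 (SE 0.14, edgeR adjusted p = 0.0001521), Mafk at 0.63, Mafg at 0.62 and Bach1 at 0.33. The others were Gsk3b, a kinase that marks NRF2 for degradation, at 0.19 (SE 0.06, edgeR adjusted p = 0.02911) and the redox sensor Park7 at -0.19 (SE 0.06, edgeR adjusted p = 0.02338). Mafk and Bach1 lost their calls there without Acadvl KO replicate 2 (edgeR adjusted p = 0.07396 and 0.05489) and without Acadl Het replicate 2 (edgeR adjusted p = 0.06967 and 0.06941), and Mafk also without replicate 1 of either group (edgeR adjusted p = 0.062 and 0.06699). Both calls were also lost with only the genotypes compared (edgeR adjusted p = 0.1501 for Mafk and 0.06821 for Bach1) and without the libraries above 10 CPM of Alb (edgeR adjusted p = 0.09644 and 0.07026).

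Further known NRF2 targets were read from a list of 24. Of these, 7 were higher and 3 lower in the labelled Acadl KO than in wild type, where 19.6% of all genes were higher and 17.6% lower, so that the counts lie near the background, and the median log2 difference was 0.08. The ferritin light chain gene Ftl1 was at 959 against 360.0 CPM, a log2 difference of 1.42 (SE 0.13, edgeR adjusted p = 2.625e-07). The pentose phosphate enzymes Pgd and Tkt were at 0.94 (SE 0.13, edgeR adjusted p = 1.351e-05) and 0.74 (SE 0.13, edgeR adjusted p = 0.0001221), Gsta2 at 1.55 (SE 0.40, with the same doubt over close copies as Gsta1) and the exporter gene Abcc1 at -0.48 (SE 0.11, edgeR adjusted p = 0.002407). Glutathione reductase (Gsr), Gsta3 and G6pdx were called higher with smaller differences, at 0.49, 0.54 and 0.22, and Gstp1 and Cbr1 lower, at -0.29 and -0.32. In Acadvl KO hearts 5 were higher and 3 lower, against 12.9% and 11.5% of all genes, with Ftl1 at 0.96 (SE 0.13), Tkt at 0.77 (SE 0.12), Pgd at 0.54 (SE 0.13) and G6pdx, which opens the pentose phosphate pathway, at 0.37 (SE 0.08). The 3 lower ones were Gstp1 at -0.55 (SE 0.08, edgeR adjusted p = 5.801e-05), the malic enzyme Me1 at -0.35 (SE 0.07, edgeR adjusted p = 0.001602) and Prdx1 at -0.24 (SE 0.08, edgeR adjusted p = 0.026). Ftl1 has close copies in the genome, so its level is uncertain.

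In the direct comparison of the KO labels 2 of these 24 genes were called, Me1 higher at 0.34 (SE 0.07, edgeR adjusted p = 0.01318) and Slc7a11 lower. Of all genes 1.77% were called higher there and 2.66% lower, and 11 of the 24 had an unadjusted p under 0.05 (edgeR). Slc7a11, which encodes the cystine importer that feeds glutathione synthesis, was singled out after its values were seen. It was 2.64-fold higher in Acadvl KO than in Acadl Het hearts, at 8.00 against 2.79 CPM (SE 0.22 on the log2 scale, edgeR adjusted p = 0.0001132). In the labelled Acadl KO it was at 3.71 CPM, with a log2 difference of 0.57 from wild type (SE 0.23, edgeR adjusted p = 0.05726), which passed the test without labelled Acadl KO replicate 2 (edgeR adjusted p = 0.01988), Acadvl KO replicate 3 or 4 or double Het replicate 3, and -1.09 from Acadvl KO (SE 0.21, edgeR adjusted p = 0.00781). It thus lay opposite to Nqo1, Gsta1 and Gsta4 in the direct comparison, although its call there was lost in a fit of these 2 genotypes alone (edgeR adjusted p = 0.1026).

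**Figure D4:**
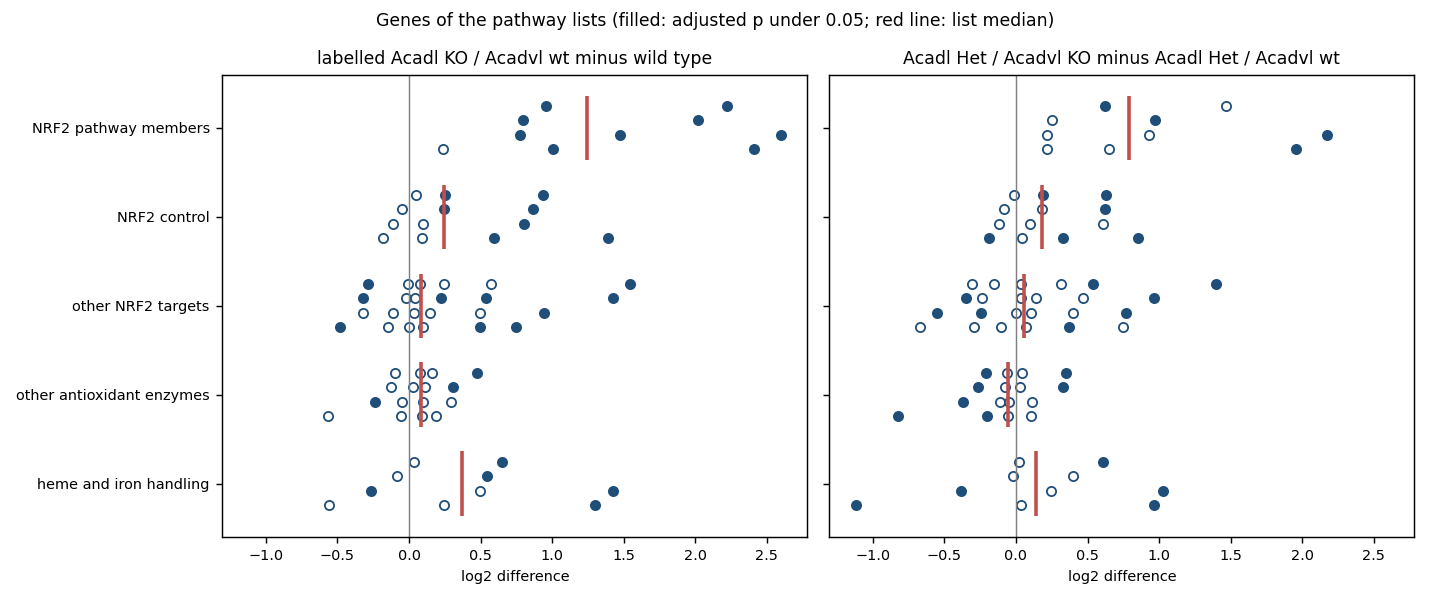
Log2 differences of the single genes of 5 lists, for labelled Acadl KO against wild-type hearts (left) and Acadvl KO against Acadl Het hearts (right), with filled points for an edgeR adjusted p under 0.05 and red lines at list medians. The medians of the 10 genes, 1.24 and 0.79, lie to the right of those of the other 4 lists, of which the highest are 0.37 and 0.18. All lists were chosen with earlier results of these data known, so this order is a description and not a test.

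Antioxidant enzymes outside this set were read from a list of 16. Of these, 2 were higher and 1 lower in the labelled Acadl KO than in wild type, where 19.6% and 17.6% of all genes were, and the median log2 difference was 0.08. They were Prdx6, a peroxiredoxin, at 0.47 (SE 0.07, edgeR adjusted p = 1.577e-05), catalase (Cat) at 0.31 (SE 0.10, edgeR adjusted p = 0.02176) and the mitochondrial glutaredoxin gene Glrx2 at -0.23 (SE 0.08, edgeR adjusted p = 0.01926). The call of Cat was lost with upper-quartile scaling (edgeR adjusted p = 0.07841) and without the libraries above 10 CPM of Alb (edgeR adjusted p = 0.09205). Without wild-type replicate 2 only Prdx6 of the 16 was called, and the call of Glrx2 was also lost without replicate 1, 2 or 4 of the labelled Acadl KO (edgeR adjusted p of up to 0.07455). In Acadvl KO hearts 2 of the 16 were higher than in Acadl Het hearts and 5 lower, where 12.9% of all genes were higher and 11.5% lower. The higher ones were Prdx6 at 0.35 (SE 0.07) and the glutathione peroxidase Gpx1 at 0.33 (SE 0.12, edgeR adjusted p = 0.04617). The 5 lower ones were Glrx2 at -0.37 (SE 0.08), Gpx3 at -0.82 (SE 0.29, edgeR adjusted p = 0.04728), the peroxiredoxins Prdx2 at -0.20 and Prdx3 at -0.27, and Msra at -0.21.

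Heme and iron handling, the pathway that heme oxygenase feeds into, was read from 10 genes, with a median log2 difference of 0.37 under the Acadl KO label. Of the 10 genes 4 were higher and 1 lower, where 19.6% of all genes were higher and 17.6% lower. Besides Ftl1, which is also counted among the further NRF2 targets above, the higher ones were Alas1, the rate-limiting enzyme of heme synthesis, at a mean of 224 CPM and 2.46 times the wild-type level (log2 1.30, SE 0.15, edgeR adjusted p = 2.292e-06), the constitutive heme oxygenase Hmox2 at 0.55 (SE 0.08, edgeR adjusted p = 2.147e-05) and the transferrin receptor gene Tfrc at 0.65 (SE 0.17, edgeR adjusted p = 0.004268). Fech, ferrochelatase, was at -0.27 (SE 0.09, edgeR adjusted p = 0.01938), a call lost without labelled Acadl KO replicate 1 (edgeR adjusted p = 0.07238) or wild-type replicate 2 (edgeR adjusted p = 0.06618). In Acadvl KO hearts 3 were higher and 2 lower, against 12.9% and 11.5% of all genes. Among them were Alas1 at 1.03 (SE 0.15), Hmox2 at 0.60 (SE 0.08), Fech at -0.38 (SE 0.09) and Slc40a1, which encodes the iron exporter ferroportin, at -1.12 (SE 0.22, edgeR adjusted p = 0.001175). Heme-bearing blood cells were read from 7 erythroid markers, of which 6 were tested and 0 called in the first of these comparisons (edgeR; 4 at an unadjusted p under 0.05), with summed levels of 1561 to 3878 CPM against 1329 to 1815 CPM, and their part was not tested.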

How the data were processed

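The files hold counts of reads per gene, 1 file per library, that the authors made from single-end Illumina reads of poly(A) RNA. Reads were aligned with STAR 2.5.1b to mm10 (GRCm38), per the submitters' processing notes, and counted with featureCounts, version 1.5.2 per the file headers and 1.5.3 per the notes. Counting ignored strand, used primary alignments only and counted a read that overlapped several genes for each of them, per the file headers. Depth was 34320838 to 51743114 counts per library, which leaves the spread between libraries as the main limit for most of the 10 genes. The 37 pairs of libraries of one genotype all differed by more than counting noise, with a chi-square per degree of freedom of at least 14.9.

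Genes with low counts were removed (edgeR filterByExpr), which left 15804, and libraries were scaled by TMM factors. All 24 libraries entered 1 edgeR 4.0.16 quasi-likelihood fit in R 4.3.3, on genotype and batch of RNA isolation. P-values were adjusted by Benjamini-Hochberg over all genes tested and called under 0.05, and standard errors were taken from the log2 difference and its F statistic. Groups and batches came from the labels. On simulated data with these libraries' means and sizes, 70.1% of 67 genes changed 2-fold were recovered for labelled Acadl KO against wild-type hearts (15641 genes). The share was 79.1% of 67 for Acadvl KO (15657 genes) and 80.6% of 67 for the direct comparison of both (15640 genes). Only 65 to 67 genes were changed there at each size, 1.5-, 2- and 4-fold. The measured libraries gave 3095 genes called higher and 2779 lower for labelled Acadl KO against wild-type hearts. Recovery with that many changed genes was not tested, nor was any difference between these percentages.

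The 10 genes and all gene lists were chosen with earlier results of these data known. From each pathway list outside the 10, up to 5 called genes with the smallest p in the comparison of the labelled Acadl KO with wild type were named. Every other list gene or marker in the text, among them Keap1 and Slc7a11, was named after its values were seen, except Alb, Cd68, Adgre1 and Myh6. Likeness was Pearson's r on log2 CPM with 0.5 CPM added, over genes whose mean reached 1 CPM. Predicted genes (Gm numbers and Rik names) were left out of it. The search for TGACTCA was added after the promoter sequences were seen. Alternatives were other scalings, no filter, DESeq2 1.42.0, limma 3.58.1 voom, no batch term, single batches, only the genotypes compared, the libraries with at most 10 CPM of Alb, library sizes without Rn45s, and each library left out.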

Additional observations from a re-analysis of the deposited data

Results flagged for a closer look

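Within a genotype, the highest or lowest library was set against its nearest neighbour for the 10 genes in the groups of 4 or 5 libraries, and 4 of 50 groups had a library far from the rest, where chance gives about 1 in 20. Hmox1 was at 146 CPM in Acadl Het replicate 4, and the next library of that genotype was at 44.5 CPM. Hmox1 was at 93.1 CPM in labelled Acadl KO replicate 4, the lowest of its group, and the next was at 193 CPM. Srxn1 was at 362 CPM in Acadvl KO replicate 2, against 156 CPM in the next, and Osgin1 was also highest in that library, which is one of those above 10 CPM of Alb. Nfe2l2 was at 115 CPM in replicate 3 of the libraries labelled Acadl KO / Acadvl Het, against 96.1 CPM in the next.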

How the results depend on the processing

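The number of the 10 genes called was within 1.5 times the values of the report under every alternative except the following. In batch 1 alone it was 3 for labelled Acadl KO against wild-type hearts, 4 against Acadl Het and 4 for Acadl KO / Acadvl Het against double Het, 1 for Acadvl KO and 0 for the direct comparison. With DESeq2 it was 7 for Acadvl KO, and with each library left out 4 to 7. Directions turned in batch 1 for Nfe2l2 in the labelled Acadl KO against Acadl Het (-0.10), Gclm (-0.079) and Hmox1 (-0.11) with Acadvl KO and Srxn1 in the direct comparison (-0.16), for Keap1 with upper-quartile scaling (-0.0065), and for Osgin1 in the direct comparison when libraries with over 10 CPM of Alb were removed (0.24). With single libraries left out, uncalled differences in the direct comparison ranged from -0.16 to 0.019 for Nfe2l2, -0.14 to 0.65 for Srxn1, -0.39 to 0.12 for Osgin1 and -0.12 to 0.45 for Hmox1. The cause of these changes was not tested, beyond the fewer libraries in a batch. The double Het groups could not be compared without the libraries above 10 CPM of Alb.

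Called genes of the other lists in the labelled Acadl KO against wild type changed as follows. Hepatocyte markers gave 0 without the filter, with voom, with only the genotypes compared, in batch 1, in batch 2 and with libraries over 10 CPM of Alb removed, 5 with DESeq2 and 2 without the batch term. Upper-quartile scaling gave 2 ventricular, 1 endothelial and 2 fibroblast markers, and only the genotypes compared gave 2 macrophage, 2 ventricular and 1 fibroblast. Batch 1 gave 0 for NRF2 control, other NRF2 targets, antioxidant enzymes, ventricular and atrial markers and 1 for heme and iron. Batch 2 gave 5 other NRF2 targets and 1 macrophage marker, and library sizes without Rn45s gave 2 erythroid markers. Leaving out single libraries gave 0 to 3 erythroid and hepatocyte markers, 0 to 1 fibroblast, 0 to 2 ventricular and 1 to 4 antioxidant genes. Of the single-gene results under alternatives other than leaving out a library, 859 kept direction and call, 74 lost a call and 8 gained one.

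Upper-quartile scaling moved the share of calls that were higher from 52% to 37.3% for the labelled Acadl KO against Acadl Het, from 49.4% to 34.1% for Acadl KO / Acadvl Het against double Het and from 40% to 21.1% in the direct comparison. No paired analysis was possible because replicate numbers were given in accession order and pair no libraries.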
